A study of Mus musculus with 24 samples.

Results

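Amino acid transporters were described here as the genes of 7 solute carrier (SLC) families, Slc1a, Slc3a, Slc6a, Slc7a, Slc36a, Slc38a and Slc43a, measured in crypts of the mouse jejunum. Members were all rows of the deposited count table whose symbol belongs to one of these families and whose mean over the 24 libraries was at least 10 estimated counts. Such a symbol was carried by 63 rows of 37620, and 45 of them were members. All 45 passed the filter on low counts, as did 16552 genes in all. Slc6a2 lay just inside the minimum with a mean of 10.3 estimated counts, and Slc1a7 just outside it with 8.23. Slc6a14, Slc6a18, Slc36a2, Slc38a3 and Slc38a5 were also among the 18 rows under the minimum. Slc38a9 appeared under 2 Ensembl identifiers. Slc7a6os matched the rule by its name alone: it is named for lying on the strand opposite Slc7a6 and is not a transporter.

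Amino acids enter absorptive enterocytes from the gut lumen through carriers of the brush border and leave into the blood through exchangers and uniporters of the basolateral membrane. Several carriers work as pairs, in which a heavy chain (Slc3a1 or Slc3a2) brings a light chain of the Slc7a family to the membrane. Dividing cells rely on another set, such as the pair of Slc3a2 with Slc7a5 and the glutamine carrier Slc1a5, which supplies protein synthesis and the signalling of the kinase complex mTORC1.

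The study asked how loss of the Notchless gene Nle1, whose product takes part in assembly of the large ribosomal subunit, acts in crypts with and without Apc, a restraint of Wnt signalling. Polyadenylated RNA was sequenced from 24 mice, 3 for each genotype and day, and each library came from a separate mouse. The genotypes were ApccKO;NlecKO (conditional loss of both genes, called the double knockout here), ApccKO (loss of Apc), NlecKO (loss of Nle1) and Control. Mice of every genotype, Control included, were 5 to 10 weeks old and received tamoxifen at 56 mg/kg on 3 consecutive days. Day 2 crypts were collected 48 h after induction and day 1 crypts 24 h after it. The recombinase driver and the deleted exons were not given in the sources used here.

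Libraries held 17864654 to 26469830 estimated counts. Nle1 itself lay between 4.81 and 12.3 CPM (counts scaled to library depth) in the 12 libraries of Nle1-deleted mice, and between 20.1 and 39.9 CPM in the 12 others. Summed Apc counts did not separate the genotypes, at 129 to 148 CPM in the ApccKO and double knockout libraries and 112 to 158 CPM in the NlecKO and Control libraries. A count over the whole gene does not check a deletion of some of its exons. By the submitters' code numbers, all libraries of Apc-deleted mice form one uninterrupted run, so a batch of that run and Apc loss cannot be told apart. On day 1, 3 libraries stood apart: ApccKO replicates 2 and 3 and double knockout replicate 3 held 455, 295 and 445 CPM of the enterocyte gene Lct, against 10.2 to 126 CPM in the other Apc-deleted libraries. Transcripts of Gm8730 and Gm9625 were under 1 CPM in these libraries and at 29.4 CPM or more in every other one.

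More members, like more of all genes tested, were called under Apc loss than under Nle1 loss. With Nle1 present, ApccKO crypts differed from Control crypts in 31 of 45 members on day 2 (13 higher, 18 lower; 68.9% of the members). Of all genes tested 58.7% were called in that comparison, 29.2% higher and 29.4% lower. On day 1 the count was 29 (12 higher, 17 lower; 64.4%), beside 49.7% of all genes, 24.7% higher and 25.0% lower. Without the libraries that stood apart, only ApccKO replicate 1 remains on day 1. For comparisons with these ApccKO crypts, effect sizes alone are therefore given below for that fit. All brush border carriers fell on day 2, and most growth-linked carriers rose while the heavy chain Slc3a2 fell. Most members grouped as lysosomal or intracellular did not pass the test. A gene was called at an adjusted p under 0.05, with edgeR's quasi-likelihood test and the Benjamini-Hochberg method across the 16552 genes. Fold changes below are on the log2 scale with their standard error (SE), and levels within a gene are CPM scaled by TMM. In bulk crypts, fewer cells of a type and less RNA per cell cannot be told apart.

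**Figure D1:**
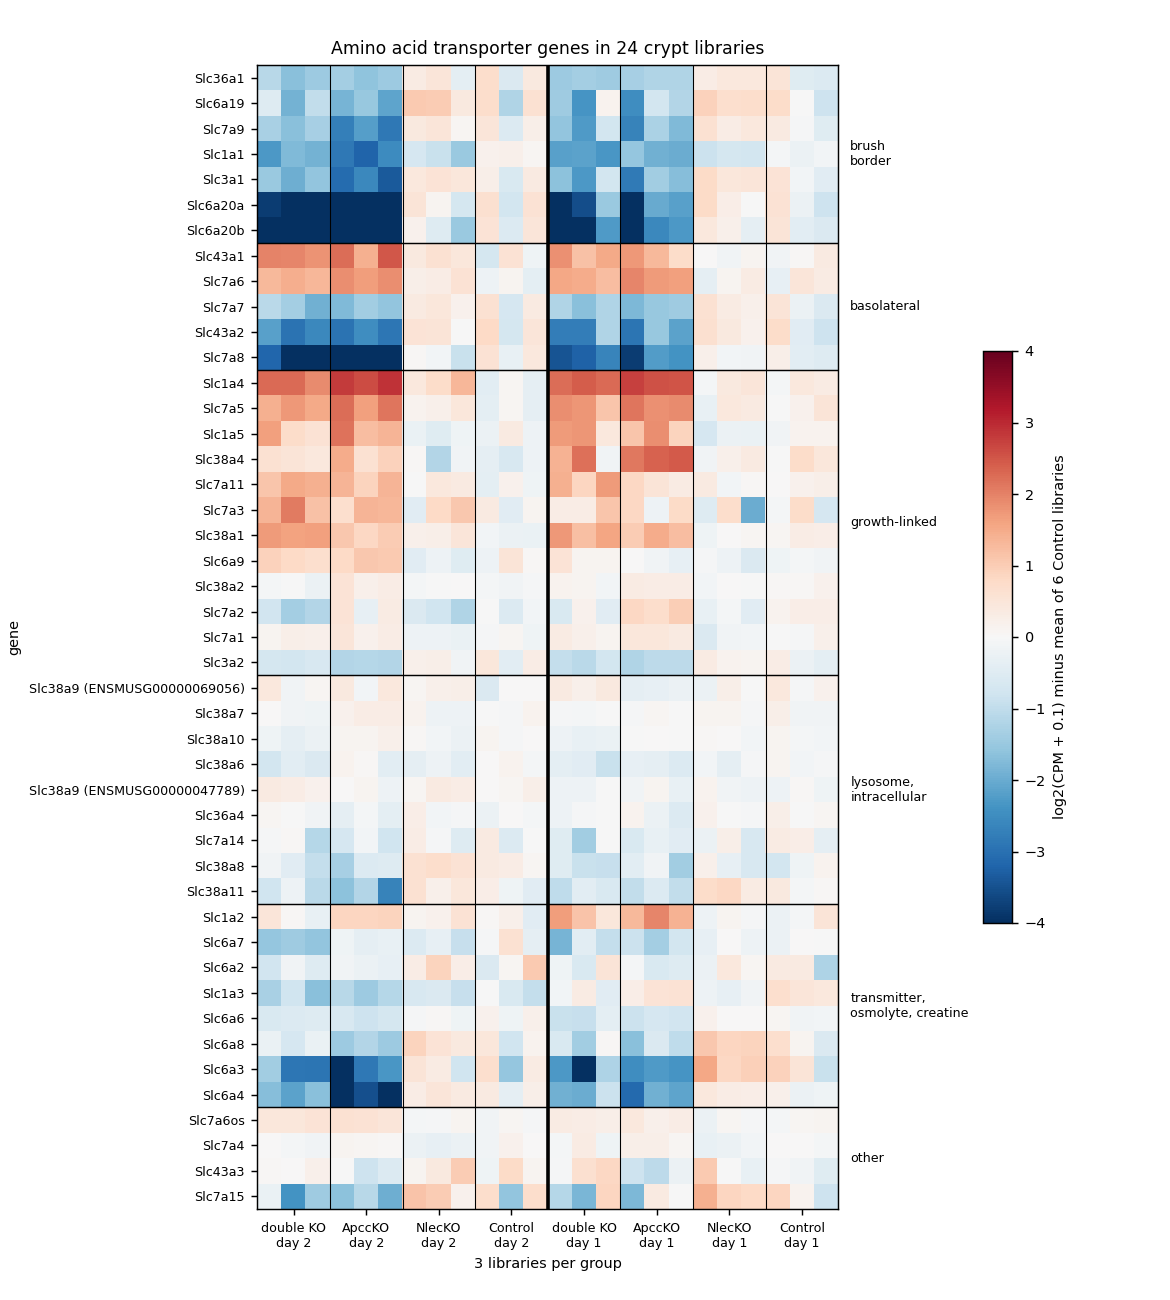
Level of each of the 45 members (rows, grouped by role) in each library (columns, 3 per group, day 2 on the left and day 1 on the right), as log2(CPM + 0.1) minus the gene's mean over the 6 Control libraries. Brush border rows are blue and most growth-linked rows red in the ApccKO and double knockout columns, while NlecKO and Control columns stay pale.

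Set side by side per transcript length, as TPM, a measure that scales counts by transcript length and library depth, the order of the members also differed. In NlecKO crypts the creatine transporter Slc6a8 had the highest level on both days, 217 ± 37.1 TPM on day 2 and 264 ± 4.04 TPM on day 1 (SD, n = 3 each). Control crypts had Slc6a20a at the top on day 2 (180 ± 73 TPM) and Slc6a8 on day 1 (167 ± 64.8 TPM), and these neighbours differed by less than their SD. In ApccKO crypts the top place went to Slc1a5, with 142 ± 52.1 TPM on day 2 and 107 ± 28.7 TPM on day 1. It was followed by Slc38a10 at 111 ± 3.43 and 92.4 ± 1.81 TPM, again within the SD of Slc1a5. In the double knockout Slc6a8 led by group mean, at 116 ± 17.7 TPM on day 2 and 109 ± 56 TPM on day 1. On day 1 Slc1a5 followed at 94.9 ± 37.5 TPM, within the SD of Slc6a8. Slc1a5 was above Slc6a8 in double knockout replicates 1 (106 against 99.2 TPM) and 2 (126 against 58.8 TPM) of that day. Replicate 3, which stood apart, had 53.2 TPM of Slc1a5 and 169 TPM of Slc6a8.

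Brush border carriers fell with Apc loss. All 7 measured members were lower in ApccKO than in Control crypts on day 2, with a median log2 fold change of -2.99, and 6 of 7 on day 1, with a median of -1.78. Over all members the medians were -0.41 and -0.40, and over all genes tested 0.02 and -0.01. Slc7a9 and its heavy chain Slc3a1 form the carrier for cystine and dibasic amino acids, whose defects cause cystinuria. Slc7a9 had 16.2, 23.6 and 14.8 CPM in ApccKO crypts on day 2, against 151, 73.1 and 128 CPM in Control crypts. Day 1 values were 17, 44.9 and 31.5 CPM in ApccKO crypts, against 138, 105 and 76.9 CPM in Control crypts. On neither day did the groups overlap, and the log2 fold changes were -2.69 (SE 0.39, adjusted p = 1.5e-05) on day 2 and -1.78 (SE 0.37, adjusted p = 0.00087) on day 1.

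Slc3a1 behaved alike, with 14.4, 20.7 and 11.9 CPM in ApccKO crypts on day 2, against 146, 80.9 and 158 CPM in Control crypts. The highest ApccKO library lay well under the lowest Control library. Its log2 fold change was -3.03 (SE 0.41, adjusted p = 7.8e-06) on day 2 and -1.92 (SE 0.39, adjusted p = 0.00069) on day 1. In the annotation used for checks (GENCODE M21), 26.5% of the exon bases of Slc3a1 overlap Prepl on the opposite strand. Whether counting used the strand is not given in the sources used here, so reads of the pair cannot be told apart there.

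The promoter of Slc3a1 was the only one of the 33 member symbols with a RefSeq promoter (GRCm38.p6) to hold the motif CAAAGTCCA, a binding word of the enterocyte factor HNF4. Both strands of 300-base windows were searched, and 0.475% of 32851 windows hold it, beside 1 of 46 member windows (2.17%). The 100 bases before the start of Slc3a1, chr17:85028247-85028346 on the plus strand, are shown with the motif in capitals because Slc3a1 is the heavy chain of a pair that fell together. It was chosen after the values were seen, and a match describes letters, not binding.
Slc3a1: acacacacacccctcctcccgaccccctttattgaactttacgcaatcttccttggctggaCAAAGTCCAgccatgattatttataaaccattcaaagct

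Of all members, Slc6a20a, a carrier of proline and other imino acids, and its neighbour Slc6a20b had the lowest log2 fold changes on day 2. Slc6a20a had 6.85, 16.2 and 7.72 CPM in ApccKO crypts on day 2, against 493, 187 and 466 CPM in Control crypts. On day 1 it had 18.4, 77.8 and 69.6 CPM in ApccKO crypts, against 473, 265 and 178 CPM in Control crypts. All ApccKO libraries lay below all Control libraries on each day, and ApccKO crypts held 2.69% of the Control level on day 2 and 18.1% on day 1. The log2 fold changes were -5.22 (SE 0.77, adjusted p = 2.1e-05) and -2.46 (SE 0.67, adjusted p = 0.006). On day 1 the 2 higher ApccKO values were those of the libraries that stood apart. Slc6a20b fell by 5.42 (SE 0.71) on day 2 and by 2.79 (SE 0.59) on day 1. It shares 11% of its 31-base words with other genes and Slc6a20a shares 19.5% with it, so reads may have been split between them.

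Slc1a1, the epithelial carrier of glutamate and aspartate, gave the tightest separation. It had 9.8, 7.58 and 12.3 CPM in ApccKO crypts on day 2, against 80.5, 81.4 and 74.3 CPM in Control crypts. Values on day 1 were 24.1, 18.5 and 17.8 CPM in ApccKO crypts, against 66.7, 61 and 65.4 CPM in Control crypts. Log2 fold changes were -2.99 (SE 0.19, adjusted p = 4.2e-10) on day 2 and -1.68 (SE 0.18, adjusted p = 8.3e-07) on day 1. Of its exon bases 31.9% overlap 4430402I18Rik on the opposite strand, and reads there cannot be assigned to one of them.

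Slc6a19, the main carrier of neutral amino acids in the brush border, varied widely between Control mice. On day 2 it had 56.9, 71.9 and 47.4 CPM in ApccKO crypts, against 337, 89.5 and 313 CPM in Control crypts. The groups did not overlap, although Control replicate 2 came close, and the log2 fold change was -2.07 (SE 0.62, adjusted p = 0.0088). On day 1 ApccKO crypts had 37, 125 and 92.3 CPM, against 346, 204 and 115 CPM in Control crypts. These values overlapped, and the log2 fold change of -1.39 (SE 0.61, adjusted p = 0.068) did not pass the test by edgeR. Slc6a19 was called on day 1 by DESeq2 (-1.37, adjusted p = 0.044) and without Control replicate 3 (-1.67, adjusted p = 0.043). Without the libraries that stood apart the log2 fold change was -2.56, with ApccKO replicate 1 alone left on day 1. The libraries left out were marked by high Lct, an enterocyte gene, so this lower value is no separate support. Slc36a1, a proton-coupled carrier of small amino acids, fell by 1.73 (SE 0.30) on day 2 and by 1.16 (SE 0.30, adjusted p = 0.0036) on day 1. The day 1 value fell by 0.73 (adjusted p = 0.041) without Control replicate 1, and was -1.22 without the libraries that stood apart.

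Basolateral carriers split in both directions, and all 5 members were called on each day. Slc7a8, the light chain LAT2 that exchanges neutral amino acids, had 12.1, 14.1 and 9.58 CPM in ApccKO crypts on day 2, against 420, 228 and 377 CPM in Control crypts. ApccKO crypts thus held 3.5% of the Control level on day 2 and 18.1% on day 1, with no overlap on either day. Its log2 fold changes were -4.84 (SE 0.44, adjusted p = 8.5e-08) and -2.46 (SE 0.39, adjusted p = 8.5e-05). Slc7a7, the light chain that releases cationic amino acids and is lost in lysinuric protein intolerance, fell by 1.77 (SE 0.30) on day 2 and 1.53 (SE 0.30) on day 1. Slc43a2, the uniporter LAT4, fell by 3.09 (SE 0.52) and 2.05 (SE 0.50).

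The other basolateral members rose. Slc7a6, a relative of Slc7a7 that is found in many tissues, had 48.2, 41.8 and 47.7 CPM in ApccKO crypts on day 2, against 11.3, 14.2 and 9.96 CPM in Control crypts. Its day 1 values were 51.4, 43.1 and 41.5 CPM in ApccKO crypts, against 10.5, 18.3 and 16.6 CPM in Control crypts. Every ApccKO library lay above every Control library, with log2 fold changes of 1.95 (SE 0.19, adjusted p = 5.5e-08) on day 2 and 1.58 (SE 0.18, adjusted p = 2e-06) on day 1. Slc43a1, the uniporter LAT3, rose by 2.15 (SE 0.32) and 1.25 (SE 0.32), from a low level: its ApccKO libraries ranged from 3.38 to 7.21 CPM on day 2, against 0.698 to 1.85 CPM in Control libraries.

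Enterocyte markers moved with these falls. The summed level of 17 enterocyte markers was 2596 to 4682 CPM in ApccKO crypts on day 2, against 9975 to 36288 CPM in Control crypts. On day 1 it was 3458 to 11121 CPM in ApccKO crypts, against 16222 to 36988 CPM in Control crypts. All 17 markers were lower on day 2 and 13 on day 1, and none was at 0. Stem cell markers moved the other way: 11 of 12 rose on day 2 and 12 of 12 on day 1, with sums of 5207 to 5843 CPM in ApccKO crypts on day 2, against 2176 to 2867 CPM in Control crypts. Goblet (7 of 10), enteroendocrine (12 of 16), tuft (9 of 9) and immune (12 of 16) markers fell on day 2, while of 10 Paneth cell markers 2 rose and 1 fell. The part of these shifts in the transporter changes was not tested.

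**Figure D2:**
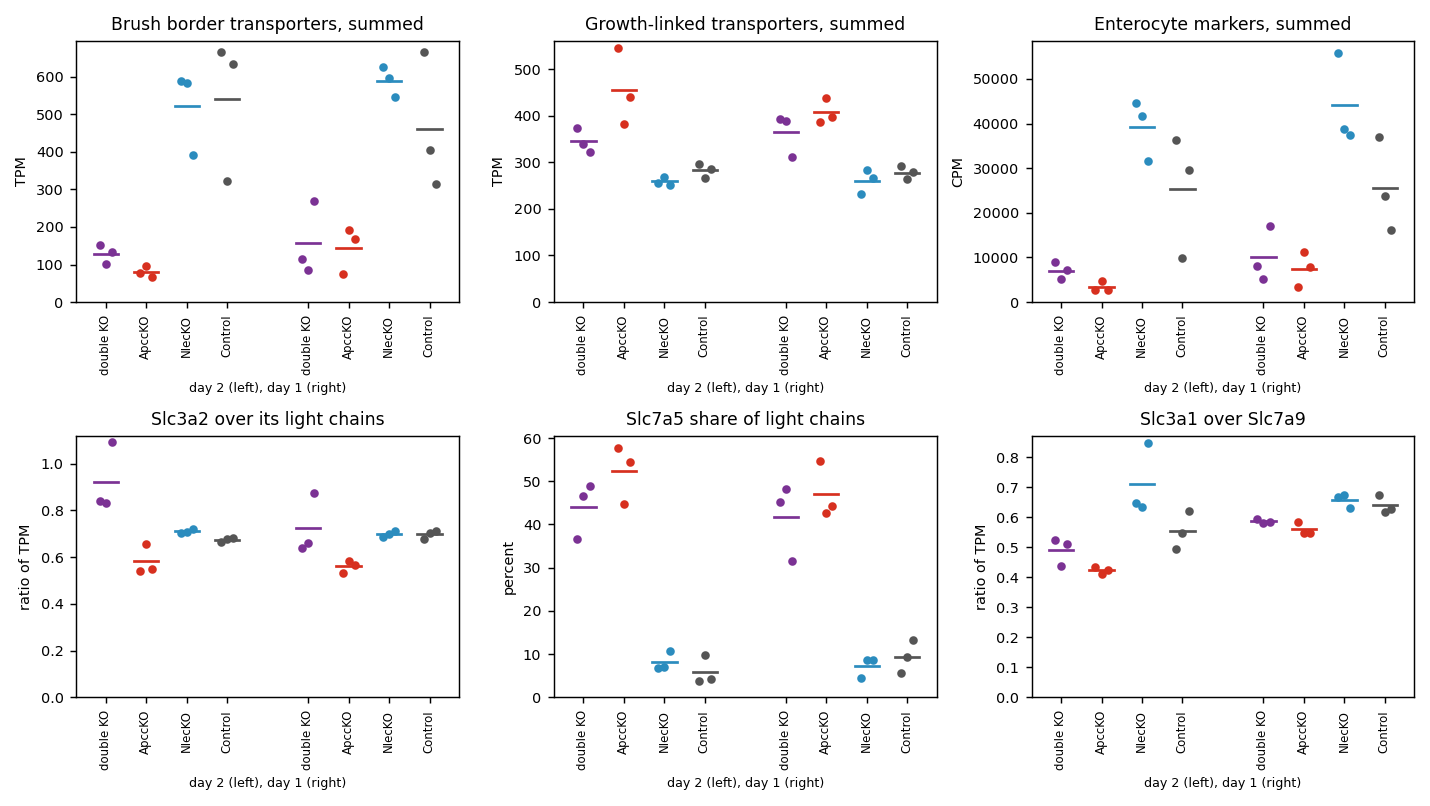
Points are libraries and lines group means, with day 2 on the left and day 1 on the right of each panel: the upper row gives the summed TPM of 7 brush border and 12 growth-linked transporters and the summed CPM of 17 enterocyte markers, the lower row the ratio of Slc3a2 to its light chains, the share of Slc7a5 among them and the ratio of Slc3a1 to Slc7a9. Growth-linked sums are 382 to 545 TPM in ApccKO crypts and 266 to 296 TPM in Control crypts on day 2, and the Slc3a2 ratio is highest in double knockout crypts on day 2.

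Growth-linked carriers rose: on day 2 ApccKO crypts had 9 of 12 members higher and 1 lower than Control crypts (median log2 fold change 1.27), and on day 1 had 8 higher and 1 lower (median 0.58). Slc1a4 (ASCT1), an exchanger of small neutral amino acids such as serine and alanine, rose most. It had 104, 91.7 and 111 CPM in ApccKO crypts on day 2, against 11.2, 15.9 and 11.7 CPM in Control crypts. Day 1 values were 100, 87.2 and 86.2 CPM in ApccKO crypts, against 14.2, 19.9 and 18.6 CPM in Control crypts. The ApccKO libraries stood several-fold above every Control library, with log2 fold changes of 2.98 (SE 0.21, adjusted p = 1.7e-09) on day 2 and 2.38 (SE 0.20, adjusted p = 7.2e-08) on day 1.

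Slc7a5 (LAT1), the light chain that imports leucine and other large neutral amino acids, had 174, 114 and 161 CPM in ApccKO crypts on day 2, against 28, 38.6 and 28.6 CPM in Control crypts. Its day 1 values were 162, 130 and 137 CPM in ApccKO crypts, against 36.5, 41 and 52.6 CPM in Control crypts. The groups were apart on both days, with log2 fold changes of 2.23 (SE 0.22, adjusted p = 1.7e-07) and 1.72 (SE 0.22, adjusted p = 7.9e-06). Slc1a5 (ASCT2) had 231, 122 and 132 CPM in ApccKO crypts on day 2, against 43.2, 65.1 and 44.6 CPM in Control crypts. No libraries overlapped, and it rose by 1.67 (SE 0.36, adjusted p = 0.00077) on day 2 and 1.32 (SE 0.36, adjusted p = 0.0058) on day 1.

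Carriers of the Slc38a family that take up glutamine and small neutral amino acids also rose. Slc38a1 (SNAT1) rose by 1.18 (SE 0.13) on day 2 and 1.06 (SE 0.13) on day 1, and Slc38a4 (SNAT4) by 1.52 (SE 0.43) and 1.93 (SE 0.40). Slc38a2 (SNAT2) moved least, with log2 fold changes of 0.45 (SE 0.08, adjusted p = 0.00014) and 0.22 (SE 0.08, adjusted p = 0.038). The day 1 call of Slc38a2 was lost without Control replicate 1 or 2 or ApccKO replicate 1 or 2, at 0.19 to 0.23 (adjusted p 0.059 to 0.12). Its value was 0.25 without the libraries that stood apart. Slc7a1, the widespread carrier of arginine and lysine, rose by 0.35 (SE 0.11) on day 2 and 0.37 (SE 0.11) on day 1, and its day 2 call was lost without ApccKO replicate 1 (0.27, adjusted p = 0.061) or Control replicate 3 (0.29, adjusted p = 0.051). Slc7a2, an arginine carrier, was called on day 1 at 0.63 (SE 0.23), and on day 2 had 0.43 (SE 0.23, adjusted p = 0.12).

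Slc7a11 (xCT), which imports cystine in exchange for glutamate, was called on day 2 only. It had 5.33, 3.83 and 5.3 CPM in ApccKO crypts, against 1.51, 2.26 and 1.77 CPM in Control crypts, a log2 fold change of 1.37 (SE 0.23, adjusted p = 4.7e-05). On day 1 ApccKO crypts had 3.63, 2.89 and 2.57 CPM, against 2.02, 2.3 and 2.36 CPM in Control crypts (0.45, SE 0.23, adjusted p = 0.12). The ApccKO libraries were above the Control libraries on both days. Slc6a9 (GLYT1), a glycine carrier, was at 0.81 (SE 0.17, adjusted p = 0.00035) on day 2 and -0.02 (SE 0.17) on day 1. Of its exon bases 27.8% overlap Ccdc24 on the opposite strand.

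Among the 17 member symbols called in a comparison of Nle1 loss, 13 had a RefSeq promoter, and those of Slc7a11 and Slc1a4 hold the CARE motif TGATGNAA, a word bound by ATF4, the transcription factor of the integrated stress response. Of all 32851 windows of 300 bases 3.97% hold it on either strand, beside 4 of 46 member windows (8.7%). Some symbols have several windows. By symbol, 3 of the 33 members with a promoter hold it, Slc7a7 being the other. The Slc7a11 sequence is the 250 bases before the start, chr3:50443614-50443863 on the minus strand, and the Slc1a4 sequence runs from 100 bases before the start, chr11:20332710-20332813 on the minus strand (GRCm38.p6, RefSeq). Capitals mark the motif, which Slc7a11 holds once on each strand and Slc1a4 on the strand opposite the gene.
Slc7a11: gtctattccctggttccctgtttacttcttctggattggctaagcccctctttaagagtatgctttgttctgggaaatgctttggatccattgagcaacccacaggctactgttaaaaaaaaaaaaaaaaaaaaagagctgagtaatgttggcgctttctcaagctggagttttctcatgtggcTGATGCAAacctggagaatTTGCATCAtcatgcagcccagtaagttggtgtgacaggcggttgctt
Slc1a4: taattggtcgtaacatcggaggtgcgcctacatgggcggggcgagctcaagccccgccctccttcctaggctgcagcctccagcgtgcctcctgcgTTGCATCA
They are shown because both genes were called in a comparison of Nle1 loss given below, Slc1a4 in opposite directions with Apc lost and Apc intact. The motif CCTTTGA, a TCF/LEF word, was in the promoters of Slc1a2, Slc38a10 and Slc7a1 (6.52% of member windows), beside 4.77% of all windows. The E-box CACGTG was in those of Slc36a1, Slc38a7, Slc43a1, Slc6a3 and Slc7a14 (10.9% of member windows), beside 7.15% of all windows.

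The heavy chain Slc3a2 went against its growth-linked partners. It had 117, 119 and 116 CPM in ApccKO crypts on day 2, against 359, 193 and 322 CPM in Control crypts, and 113, 127 and 126 CPM in ApccKO crypts on day 1, against 320, 220 and 201 CPM in Control crypts. ApccKO crypts held 40.4% of the Control level on day 2 and 49.5% on day 1, with log2 fold changes of -1.31 (SE 0.18, adjusted p = 5.8e-06) and -1.02 (SE 0.18, adjusted p = 0.00016). Its light chains changed places under it. Of the summed TPM of Slc7a5, Slc7a6, Slc7a7, Slc7a8 and Slc7a11, Slc7a5 made up 52.3% ± 6.81 in ApccKO crypts on day 2, against 5.9% ± 3.31 in Control crypts (SD, n = 3 each). On day 1 its share was 47.2% ± 6.48 in ApccKO crypts and 9.4% ± 3.89 in Control crypts. Slc7a7 and Slc7a8 together had 31.4% ± 6.72 in ApccKO crypts on day 2, against 91.7% ± 4.55 in Control crypts.

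The ratio of Slc3a2 to these light chains, as TPM, was 0.582 ± 0.0627 in ApccKO crypts on day 2, against 0.674 ± 0.00872 in Control crypts. On day 1 it was 0.561 ± 0.0271 in ApccKO crypts and 0.697 ± 0.0171 in Control crypts (SD, n = 3 each). All ApccKO libraries lay below all Control libraries. In the double knockout it was 0.83 to 1.09 on day 2, above the 0.542 to 0.654 of ApccKO crypts, and 0.638 to 0.872 on day 1, above the 0.531 to 0.584 of ApccKO crypts. NlecKO crypts had 0.702 to 0.721 on day 2, against 0.664 to 0.68 in Control crypts, and on day 1 the ranges overlapped, at 0.686 to 0.713 in NlecKO crypts and 0.678 to 0.711 in Control crypts. These ratios were described and not tested.

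**Figure D3:**
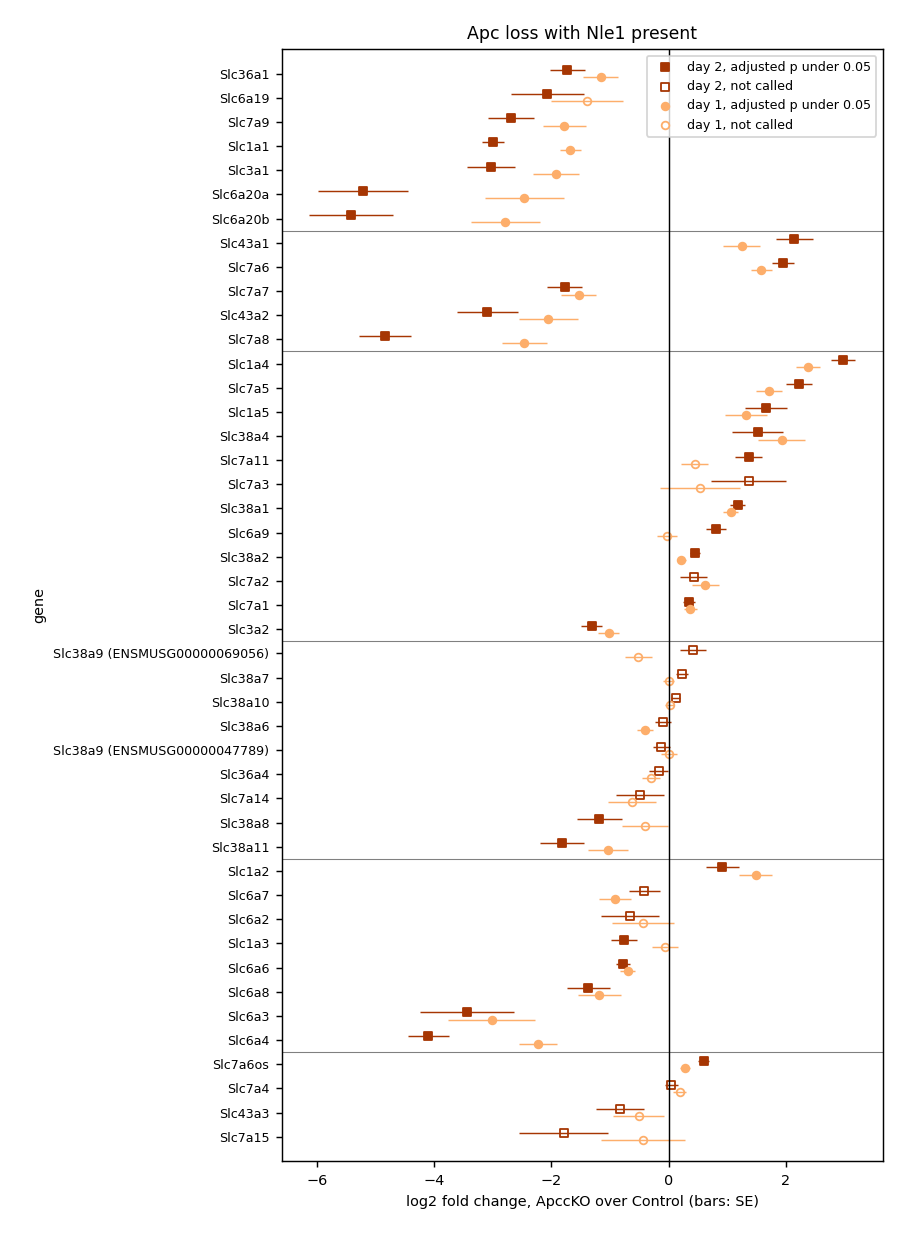
Log2 fold change of every member in ApccKO over Control crypts, with bars of 1 SE, day 2 as squares above day 1 as circles, filled where the adjusted p is under 0.05; lines separate the roles in the order brush border, basolateral, growth-linked, lysosomal and intracellular, transmitter, osmolyte and creatine, and other. On day 2 Slc6a20a at -5.22 and Slc1a4 at 2.98 lie near the ends of the range.

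Of 9 members grouped as carriers of lysosomes and other intracellular membranes, 2 were lower in ApccKO than in Control crypts on each day. None was higher (medians -0.12 on day 2 and -0.40 on day 1). Of all genes tested 29.4% were lower and 29.2% higher on day 2, and 25.0% and 24.7% on day 1. The members called were Slc38a6, Slc38a8 and Slc38a11, whose site in the cell was not checked here. Slc38a9, the lysosomal arginine sensor that signals to mTORC1, had log2 fold changes of -0.12 (SE 0.14) on day 2 and 0.01 (SE 0.14) on day 1 under its identifier ENSMUSG00000047789. Its libraries ranged from 6.93 to 8.71 CPM in ApccKO crypts on day 2, against 8.09 to 9.42 CPM in Control crypts, and these overlapped. The other identifier, ENSMUSG00000069056, had 2.04, 1.4 and 2.09 CPM in ApccKO crypts on day 2, against 0.989, 1.56 and 1.55 CPM in Control crypts. It was not called on either day in the main fit. Without Control replicate 2 it was called on day 1 (-0.63, adjusted p = 0.048), and without ApccKO replicate 2 on day 2 (0.59, adjusted p = 0.039). Slc38a7, the lysosomal glutamine exporter, had 0.23 (SE 0.10, adjusted p = 0.061) and 0.00 (SE 0.10). Slc38a11 fell on both days, by 1.82 (SE 0.37) and 1.03 (SE 0.34). Slc38a8 fell by 1.18 (SE 0.38) on day 2, and Slc38a6 by 0.40 (SE 0.14) on day 1. Slc38a8 and Slc38a11 stayed under 3 CPM in every library, and 31.3% of the 31-base words of Slc38a6 occur in other genes.

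Carriers of transmitters, osmolytes and creatine mostly fell, 5 of 8 lower and 1 higher in ApccKO than in Control crypts on each day. Slc6a4, the serotonin transporter, had 6.94, 10.9 and 5.77 CPM in ApccKO crypts on day 2, against 160, 97.4 and 148 CPM in Control crypts. Day 1 levels were 14.3, 33.3 and 29.2 CPM in ApccKO crypts, against 143, 106 and 111 CPM in Control crypts. The groups were far apart on both days, with log2 fold changes of -4.10 (SE 0.35, adjusted p = 4.1e-08) and -2.23 (SE 0.32, adjusted p = 3.1e-05). Slc6a3, the dopamine transporter, fell by 3.44 (SE 0.80) and 3.02 (SE 0.74), at under 7 CPM in every library.

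Slc6a8, the creatine transporter, fell by 1.37 (SE 0.37, adjusted p = 0.004) on day 2 and by 1.18 (SE 0.37, adjusted p = 0.013) on day 1, when the libraries overlapped. The day 1 call was lost without Control replicate 1 (-0.82, adjusted p = 0.095) or ApccKO replicate 1 (-0.92, adjusted p = 0.075). Slc6a6, the taurine transporter, fell by 0.78 (SE 0.12) and 0.70 (SE 0.12) with no overlap on either day. The glutamate carrier Slc1a2 was the one that rose, by 0.92 (SE 0.28) on day 2 and 1.49 (SE 0.28) on day 1. Its ApccKO libraries held 9.58 to 9.81 CPM on day 2, against 3.8 to 6.08 CPM in Control libraries. Slc1a3, a glutamate carrier best known from glia, fell by 0.76 (SE 0.23) on day 2 and had -0.06 (SE 0.22) on day 1, while Slc6a7, the proline transporter of the brain, fell by 0.91 (SE 0.27) on day 1 and had -0.41 (SE 0.27, adjusted p = 0.2) on day 2. Of 12 neuron and glia markers 6 were tested and 1 was at 0 in every library, and the sum of all 12 was 9.12 to 10.1 CPM in ApccKO crypts on day 2, against 6.75 to 8.46 CPM in Control crypts.

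In the remaining role, Slc7a6os rose by 0.60 (SE 0.09) on day 2 and 0.28 (SE 0.09) on day 1. Slc7a15, Slc7a4 and Slc43a3, the last a nucleobase carrier, did not pass the test on either day.

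Apc loss with Nle1 also lost gave a like count. Double knockout crypts differed from NlecKO crypts in 29 members on day 2 (10 higher, 19 lower; 64.4%), beside 47.8% of all genes tested, 25.6% higher and 22.2% lower. On day 1 they differed in 31 (12 higher, 19 lower; 68.9%), beside 52.6% of all genes, 28.2% higher and 24.4% lower. Without the libraries that stood apart the day 1 count was 32. All 7 brush border members were lower on both days, with medians of -1.87 and -1.85. Growth-linked members were higher in 7 of 12 on day 2 and 8 of 12 on day 1, and Slc3a2 was the one that fell, by 0.81 (SE 0.18) and 1.12 (SE 0.18). Slc1a4 had 72.4, 72.7 and 55.8 CPM in double knockout crypts on day 2, against 19.9, 24.9 and 37.6 CPM in NlecKO crypts, a rise of 1.28 (SE 0.20, adjusted p = 3.8e-05) without overlap. Slc6a9 was higher on both days, by 1.18 (SE 0.17) and 0.54 (SE 0.17), as was Slc7a11, by 1.13 (SE 0.23) and 1.29 (SE 0.23).

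Some of these calls rested on single libraries. Slc6a19 fell by 1.87 (SE 0.62) on day 2 and 1.61 (SE 0.61) on day 1. Its day 2 call was lost without double knockout replicate 2 or 3 or NlecKO replicate 1 (-1.57 to -1.89, adjusted p 0.05 to 0.085). Its day 1 call was lost without any one NlecKO library or double knockout replicate 1 or 2 (-1.19 to -1.65, adjusted p 0.056 to 0.14), and the value was -2.59 without double knockout replicate 3. Slc6a8 fell by 1.02 (SE 0.37) on day 2, and was not called without any one double knockout library or NlecKO replicate 1 or 2 (-0.87 to -1.08, adjusted p 0.051 to 0.11). Slc7a15 fell by 1.93 (SE 0.75) on day 2, and was not called without double knockout replicate 2 or 3 or NlecKO replicate 1 or 2 (-1.55 to -1.82, adjusted p 0.093 to 0.15). On day 1 the rise of Slc6a9 was not called without NlecKO replicate 3 (0.41) or double knockout replicate 1 (0.40), and that of Slc38a4 (1.33, SE 0.41) not without double knockout replicate 2 (0.70, adjusted p = 0.15). Slc38a4 overlapped between the groups.

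**Figure D4:**
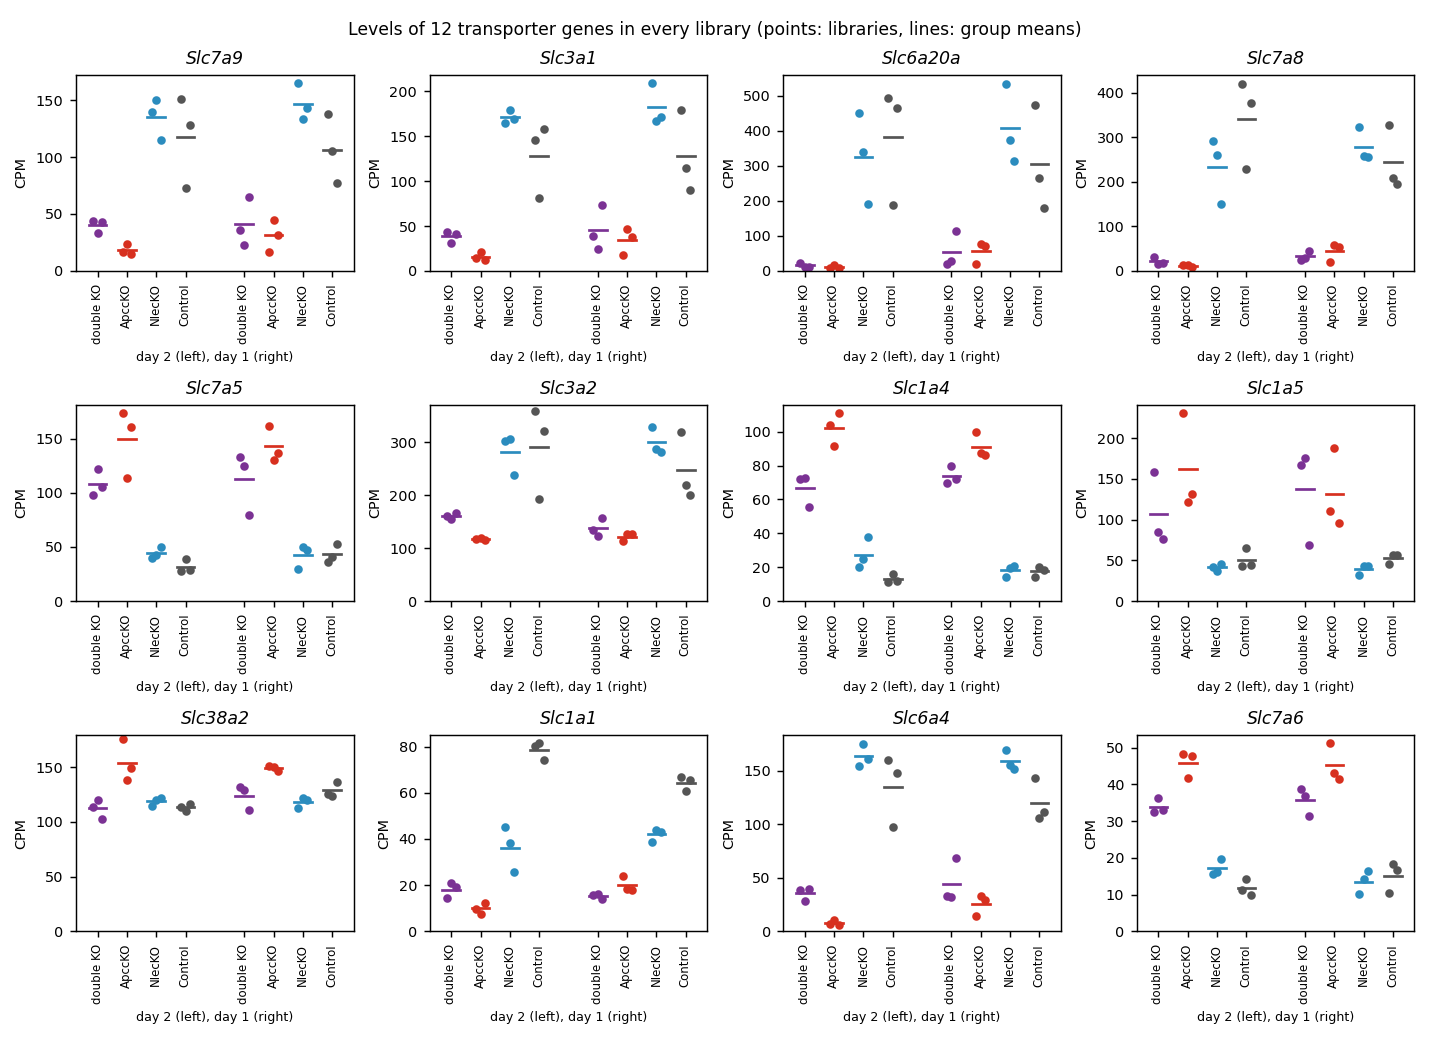
CPM of 12 members in every library (points) with group means (lines), with day 2 on the left and day 1 on the right of each panel, and double knockout, ApccKO, NlecKO and Control in that order within a day. Slc1a1 separates all 4 genotypes on day 2, and Slc1a4 is highest in ApccKO crypts at 91.7 to 111 CPM and lowest in Control crypts at 11.2 to 15.9 CPM.

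Nle1 loss with Apc intact changed few transporters. On day 2 NlecKO crypts differed from Control crypts in 4 of 45 members, 2 higher and 2 lower (8.89%), beside 15.6% of all genes tested, 7.33% higher and 8.26% lower. No member was called on day 1 (2.48% of all genes tested, 0.87% higher and 1.61% lower) by edgeR, 5 members had an unadjusted p under 0.05, and DESeq2 called 2. Slc1a4 had 19.9, 24.9 and 37.6 CPM in NlecKO crypts on day 2, against 11.2, 15.9 and 11.7 CPM in Control crypts. The groups did not overlap, with a log2 fold change of 1.09 (SE 0.20, adjusted p = 0.0014), and on day 1 it was 0.05 (SE 0.20). Fitted with only the libraries compared, the day 2 value was 1.10 (adjusted p = 0.072), and the calls of Slc38a1 (0.53, adjusted p = 0.054) and Slc6a9 (-0.54, adjusted p = 0.18) were lost as well. Slc38a1 had 128, 132 and 156 CPM in NlecKO crypts on day 2, against 104, 93.8 and 92 CPM in Control crypts (0.52, SE 0.13, adjusted p = 0.0082). All 3 NlecKO libraries were above the Control libraries, and the call was lost without NlecKO replicate 3 (0.43, adjusted p = 0.064).

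Slc1a1 went the other way, with 45, 38.4 and 25.5 CPM in NlecKO crypts on day 2, against 80.5, 81.4 and 74.3 CPM in Control crypts. It was lower in every NlecKO library, at 46% of the Control level, with a log2 fold change of -1.12 (SE 0.18, adjusted p = 0.00031). On day 1 NlecKO crypts had 38.9, 44 and 43 CPM, against 66.7, 61 and 65.4 CPM in Control crypts. Again none overlapped, but the log2 fold change of -0.62 (SE 0.17, adjusted p = 0.065) did not pass the test by edgeR. DESeq2 did call Slc1a1 on day 1 (-0.59, adjusted p = 0.029). Slc6a9 fell by 0.55 (SE 0.17, adjusted p = 0.033) on day 2, a call lost without NlecKO replicate 1 (-0.51) or 3 (-0.49) or Control replicate 2 (-0.32), at adjusted p 0.085 to 0.25.

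The other brush border carriers did not pass the test in NlecKO crypts. Slc6a19, Slc3a1 and Slc7a9 had log2 fold changes of 0.59 (SE 0.60), 0.42 (SE 0.37) and 0.20 (SE 0.36) on day 2. Slc7a7, Slc7a8, Slc43a2, Slc3a2, Slc7a5, Slc1a5, Slc7a1, Slc38a2, Slc6a6, Slc6a8 and Slc36a1 also had adjusted p of 0.16 or more on that day. Enterocyte markers were 31646 to 44575 CPM in NlecKO crypts on day 2, against 9975 to 36288 CPM in Control crypts, with 1 of 17 called higher. Of 16 enteroendocrine markers 8 were higher in NlecKO crypts on day 2, and their part in the transporter changes was not tested.

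On day 2, Nle1 loss with Apc lost as well gave more calls than with Apc intact, among members as among all genes tested. Double knockout crypts differed from ApccKO crypts in 14 members, 6 higher and 8 lower (31.1%), beside 34.9% of all genes tested, 19.5% higher and 15.4% lower. On day 1 the count was 5, 2 higher and 3 lower (11.1%), beside 10.6% of all genes, 5.87% higher and 4.77% lower. Without the libraries that stood apart a single ApccKO library remained on day 1, so no count is given for that fit. Both comparisons share the ApccKO libraries with those of ApccKO against Control crypts, so a fall there and a rise here are not independent.

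Slc6a4 was the most raised on day 2. Its values were 38.5, 28.5 and 39.4 CPM in double knockout crypts, against 6.94, 10.9 and 5.77 CPM in ApccKO crypts. The lowest double knockout library was above the highest ApccKO library, and the log2 fold change was 2.18 (SE 0.33, adjusted p = 7.5e-05). These levels remained under the 97.4 to 160 CPM of Control crypts. The brush border members called were Slc3a1 (1.31, SE 0.39, adjusted p = 0.016), Slc7a9 (1.14, SE 0.37, adjusted p = 0.025) and Slc1a1 (0.87, SE 0.19, adjusted p = 0.0012). Slc7a9 had 44.1, 33.7 and 42.8 CPM in double knockout crypts on day 2, against 16.2, 23.6 and 14.8 CPM in ApccKO crypts, with no overlap.

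Slc6a20a, with 22.6, 11.7 and 11.9 CPM in double knockout crypts and 6.85, 16.2 and 7.72 CPM in ApccKO crypts on day 2, overlapped and was not called. Slc6a19, Slc36a1, Slc7a7, Slc7a8, Slc43a2 and Slc6a6 were not called either, nor were the growth-linked Slc7a5, Slc1a5 and Slc7a1. Slc7a5 had 97.6, 122 and 105 CPM in double knockout crypts, against 174, 114 and 161 CPM in ApccKO crypts. Slc1a5 had 159, 85.3 and 75.8 CPM, against 231, 122 and 132 CPM. Both overlapped, and edgeR called Slc7a5 without ApccKO replicate 2 (-0.63, adjusted p = 0.039). Growth-linked sums were 321 to 374 TPM in double knockout and 382 to 545 TPM in ApccKO crypts, not tested. For Slc3a2 and Slc6a8 the call depended on the fit. Slc3a2 had 160, 156 and 167 CPM in double knockout crypts on day 2, against 117, 119 and 116 CPM in ApccKO crypts (0.45, SE 0.18, adjusted p = 0.056 by edgeR). Slc6a8 had 285, 214 and 284 CPM in double knockout crypts, against 126, 153 and 124 CPM in ApccKO crypts (0.96, SE 0.37, adjusted p = 0.05, just over the threshold). Neither gene overlapped between the groups, and both were called with a term for sex (adjusted p = 0.029 for Slc3a2 and 0.038 for Slc6a8) and with only the libraries compared (adjusted p = 0.00035 and 0.00076), Slc6a8 also by DESeq2 (adjusted p = 0.019). Slc38a1 was higher, with 363, 336 and 345 CPM in double knockout crypts on day 2, against 234, 197 and 225 CPM in ApccKO crypts (0.67, SE 0.13, adjusted p = 0.00036). With no overlap between them, its double knockout libraries were also above every Control library (92 to 104 CPM). Slc38a11 was higher by 1.22 (SE 0.38), at under 1.3 CPM in both groups.

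Members that were lower in the double knockout on day 2 were Slc7a2 (-1.31, SE 0.24), Slc6a7 (-1.26, SE 0.28), Slc1a2 (-0.77, SE 0.27), Slc1a4 (-0.61, SE 0.19), Slc38a6 (-0.51, SE 0.14), Slc38a2 (-0.46, SE 0.08), Slc38a10 (-0.39, SE 0.08) and Slc38a7 (-0.35, SE 0.10). Slc38a2 had 114, 120 and 103 CPM in double knockout crypts, against 176, 138 and 149 CPM in ApccKO crypts (adjusted p = 0.00025). All double knockout libraries lay below all ApccKO libraries, near the 110 to 116 CPM of Control crypts. Slc7a2 had 3.87, 2.52 and 2.86 CPM in double knockout crypts, against 9.63, 5.19 and 8.23 CPM in ApccKO crypts (adjusted p = 0.00031). No libraries overlapped, and it was lower on day 1 too (-1.12, SE 0.23), as were Slc38a2 (-0.27, SE 0.08) and Slc38a10 (-0.26, SE 0.08).

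Slc7a11 and Slc43a3 were higher in the double knockout on day 1. Slc7a11 had 5.55, 3.73 and 6.83 CPM in double knockout crypts, against 3.63, 2.89 and 2.57 CPM in ApccKO crypts, without overlap (0.82, SE 0.22, adjusted p = 0.024). Without the libraries that stood apart it was 0.35, with ApccKO replicate 1 alone left. Slc43a3 had 1.32 (SE 0.42, adjusted p = 0.048), at under 1.5 CPM. On day 2 Slc7a11 was at 4.45, 5.95 and 5.61 CPM in double knockout crypts, against 5.33, 3.83 and 5.3 CPM in ApccKO crypts, values that overlapped.

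Several of these calls were lost without 1 library. On day 1 this held for Slc7a11 (without ApccKO replicate 2 or 3 or double knockout replicate 1 or 3, 0.61 to 0.78, adjusted p 0.063 to 0.17) and Slc38a2 (without any one ApccKO library or double knockout replicate 3, -0.20 to -0.29, adjusted p 0.08 to 0.25). Slc43a3 and Slc38a10 were not called without any one ApccKO library or double knockout replicate 2 or 3, at 1.12 to 1.63 (adjusted p 0.055 to 0.21) and -0.25 to -0.28 (adjusted p 0.061 to 0.12). On day 2 ApccKO replicate 1 decided Slc38a6 (-0.40), and double knockout replicate 3 decided Slc38a7 (-0.31). ApccKO replicate 1 or 3 decided Slc3a1 (1.25 and 1.15), Slc7a9 (1.07 and 1.02) and Slc1a4 (-0.60 and -0.55). Slc7a9 was also not called without double knockout replicate 1 (1.07) or 3 (1.10), nor Slc1a4 without double knockout replicate 3 (-0.50). Slc38a11 was not called without ApccKO replicate 3 (0.84) or double knockout replicate 2 (0.92), and Slc1a2 not without any one ApccKO library or double knockout replicate 2 or 3 (-0.60 to -0.77). Adjusted p for these day 2 values were 0.051 to 0.16.

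Marker sums also differed between double knockout and ApccKO crypts on day 2. Enterocyte markers summed to 5076 to 8901 CPM in double knockout crypts, against 2596 to 4682 CPM in ApccKO crypts, with 4 of 17 called higher (beside 19.5% of all genes tested). Enteroendocrine markers summed to 463 to 590 CPM in double knockout crypts, against 253 to 368 CPM in ApccKO crypts (10 of 16 higher, 2 lower). Stem cell markers summed to 2181 to 2636 CPM in double knockout crypts, against 5207 to 5843 CPM in ApccKO crypts (11 of 12 lower). Of 10 goblet cell markers 7 were higher and 1 lower, 7 of 16 immune and 4 of 9 tuft markers were higher, and none of 10 Paneth cell markers was called. The part of these shifts in the transporter values was not tested.

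**Figure D5:**
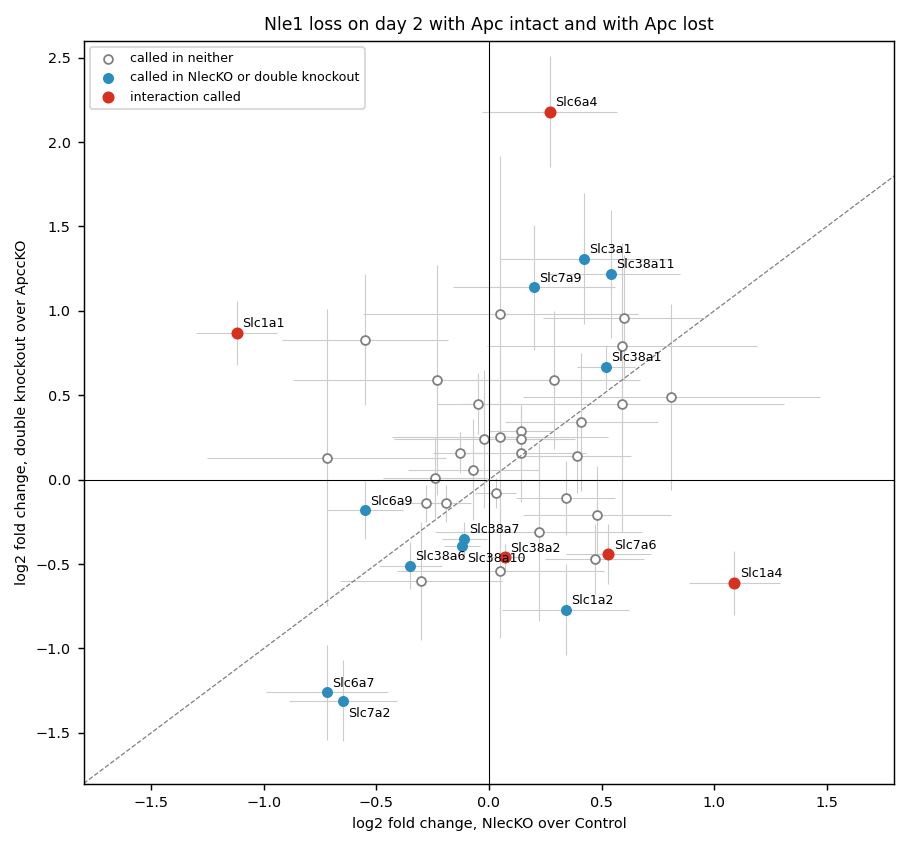
Each point is 1 of the 45 members on day 2: the horizontal axis gives the log2 fold change of NlecKO over Control crypts and the vertical axis that of double knockout over ApccKO crypts, with bars of 1 SE and a dashed line where both are equal. Slc1a1 and Slc1a4 lie in opposite corners, and the 5 members whose difference between the axes was called are red.

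The effect of Nle1 loss differed by Apc state for 5 members on day 2, 2 with a positive and 3 with a negative difference (11.1%), beside 5.24% of all genes tested, 3.29% positive and 1.95% negative. On day 1 it differed for none (0.0121% of all genes tested, all positive; 5 members had an unadjusted p under 0.05, and DESeq2 called none). The difference is the log2 fold change of double knockout over ApccKO minus that of NlecKO over Control. It was 1.99 for Slc1a1 (SE 0.26, adjusted p = 0.00022), where Nle1 loss gave 0.87 with Apc lost and -1.12 with Apc intact. For Slc1a4 it was -1.70 (SE 0.28, adjusted p = 0.0018), from -0.61 with Apc lost and 1.09 with Apc intact. In both genes the 2 effects had opposite signs and each was called by edgeR, but those of Slc1a4 were not called under every alternative: the NlecKO effect was lost with only the libraries compared (adjusted p = 0.072), and the double knockout effect without ApccKO replicate 1 or 3 or double knockout replicate 3 (adjusted p 0.051 to 0.094).

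Slc6a4 had a difference of 1.90 (SE 0.45, adjusted p = 0.02), from 2.18 with Apc lost and 0.27 with Apc intact, and Slc38a2 one of -0.53 (SE 0.12, adjusted p = 0.012), from -0.46 and 0.07. Slc7a6 had a difference of -0.97 (SE 0.26, adjusted p = 0.032), although neither effect was called by itself (-0.44 with Apc lost, 0.53 with Apc intact). On day 2 Slc7a6 had 32.5, 36.4 and 32.9 CPM in double knockout crypts, 48.2, 41.8 and 47.7 CPM in ApccKO crypts, 15.6, 16.2 and 19.7 CPM in NlecKO crypts, and 11.3, 14.2 and 9.96 CPM in Control crypts. All double knockout libraries were below all ApccKO libraries, and all NlecKO libraries above all Control libraries. Its call was lost without any one double knockout library, ApccKO or Control replicate 1 or 3, or NlecKO replicate 3 (-0.86 to -1.02, adjusted p 0.052 to 0.093). That of Slc6a4 was lost without ApccKO replicate 1 or 3, double knockout replicate 3 or Control replicate 1 (1.73 to 1.82, adjusted p 0.052 to 0.058). For Slc7a5 the call depended on the fit. Its difference was not called in the main fit, but was by DESeq2 (-0.96, adjusted p = 0.028). It was also called with only the libraries compared (-1.04, adjusted p = 0.032) and with the filter of 2 CPM in 3 libraries (-1.04, adjusted p = 0.044). The same held without ApccKO replicate 2 (-1.1, adjusted p = 0.048) or Control replicate 2 (-1.11, adjusted p = 0.044).

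Between days, ApccKO crypts changed in 7 members (1 higher on day 2, 6 lower; 15.6%), beside 11.3% of all genes tested, 5.84% higher and 5.49% lower. Double knockout crypts changed in 3, all lower (6.67%), beside 6.49% of all genes, 3.46% higher and 3.04% lower. By edgeR no member was called in NlecKO crypts (0.0362% of all genes tested, 0.0181% in each direction; 6 members had an unadjusted p under 0.05, and DESeq2 called none). None was called in Control crypts either (0.163%, 0.109% higher and 0.0544% lower; 4 members had an unadjusted p under 0.05, and DESeq2 called 1). The single member that rose in ApccKO crypts was Slc6a9, with 18.6, 22.4 and 22.1 CPM on day 2 and 10.7, 9.58 and 8.44 CPM on day 1 (1.13, SE 0.17, adjusted p = 0.00034). No libraries overlapped, and it was 0.96 without the libraries that stood apart, which left ApccKO replicate 1 alone on day 1.

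The 6 members that were lower on day 2 in ApccKO crypts were Slc6a20a (-2.43, SE 0.69), Slc7a8 (-1.88, SE 0.40), Slc1a3 (-1.72, SE 0.23), Slc6a4 (-1.70, SE 0.33), Slc38a4 (-1.29, SE 0.39) and Slc1a1 (-1.03, SE 0.19). Without the libraries that stood apart, Slc6a20a was at -0.86, Slc7a8 at -0.77, Slc6a4 at -0.88 and Slc38a4 at -1.09, each nearer to no change. Calls of Slc6a20a and Slc38a4 were lost without ApccKO replicate 2 or 3 of day 1 or ApccKO replicate 3 of day 2. The same held without ApccKO replicate 1 of day 2 for Slc6a20a and replicate 2 of day 2 for Slc38a4. Values in these fits were -2.11 to -2.28 and -1.12 to -1.28 (adjusted p 0.092 to 0.13). In ApccKO crypts Slc1a3 had 4.9, 3.83 and 4.74 CPM on day 2, against 12.9, 15.7 and 15.9 CPM on day 1. It was lower on day 2 in every library, in the double knockout too (-1.20, SE 0.23, adjusted p = 0.0046), where the call was lost with only the libraries compared (adjusted p = 0.063). All day 2 libraries also lay below all day 1 libraries in NlecKO crypts (-0.50, SE 0.23, adjusted p = 0.48) and in Control crypts (-1.02, SE 0.23, adjusted p = 0.085), so the direction was shared by all 4 genotypes. With only the libraries compared, the ApccKO calls of Slc6a4, Slc7a8 and Slc6a20a were lost too (adjusted p 0.051 to 0.099).

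In the double knockout Slc1a2 (-1.07, SE 0.28) and Slc7a2 (-0.83, SE 0.24) also fell between days. Slc1a2 was not called without double knockout replicate 1 or 2 of day 1 or 2 or 3 of day 2 (-0.73 to -1.09, adjusted p 0.083 to 0.14). Slc7a2 was not called without double knockout replicate 2 of day 1 or 2 or 3 of day 2 (-0.55 to -0.78, adjusted p 0.17 to 0.29), nor without the library that stood apart (-0.92, adjusted p = 0.062).

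Genes that work with these carriers were counted from lists, beside 58.7% of all genes called in ApccKO against Control crypts on day 2, 49.7% on day 1, 34.9% in double knockout against ApccKO crypts on day 2 and 15.6% in NlecKO against Control crypts on day 2. Of 13 tested genes on a list of brush border partners and peptidases, 12 were lower in ApccKO than in Control crypts on day 2. On day 1, 8 were lower, and the medians were -2.82 on day 2 and -1.65 on day 1. The peptidases Enpep (-4.23, SE 0.59) and Anpep (-2.82, SE 0.43) were among the lower genes on day 2. The list also held Lap3, Pepd and Cndp2, which are peptidases of the cytosol. In double knockout against ApccKO crypts 2 genes of the list were higher on day 2, Lap3 (0.50, SE 0.16) and Ggt1 (1.62, SE 0.52). Of 15 tested carriers of peptides, aromatic and mitochondrial amino acids, 8 were lower and 2 higher in ApccKO crypts on day 2. Slc16a10, the basolateral carrier of aromatic amino acids, fell by 2.41 (SE 0.34), and Slc25a15, the mitochondrial ornithine carrier, by 1.68 (SE 0.19).

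Cytosolic aminoacyl-tRNA synthetases, which load amino acids onto tRNA, rose with Apc loss: 16 of 20 were higher in ApccKO than in Control crypts on day 2 and 14 on day 1, and none lower. Gars rose by 0.90 (SE 0.10) on day 2 and Cars by 0.70 (SE 0.10). Of 27 tested genes of the integrated stress response, 15 were higher and 5 lower in ApccKO crypts on day 2. In NlecKO crypts 8 were higher than in Control crypts on day 2 and none lower, among them Gdf15 (3.79, SE 0.40), Sesn2 (1.89, SE 0.22) and Atf4 (0.51, SE 0.09). The median over the list was 0.13 there. In double knockout against ApccKO crypts on day 2, 6 were higher and 1 lower, a share below that of all genes (34.9%), and the median was 0.0. Sesn2 (2.70, SE 0.23), Gdf15 (3.83, SE 0.39) and Atf4 (0.58, SE 0.09) were again among the higher ones. These genes were named for their small p and do not stand for the whole list.

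Of 33 genes of amino acid sensing by mTORC1, 7 were higher and 11 lower in ApccKO than in Control crypts on day 2, a share near that of all genes (58.7%). Rragd, a small GTPase of the lysosomal sensor, fell by 3.01 (SE 0.27), and Rraga rose by 0.53 (SE 0.07). In double knockout against ApccKO crypts on day 2, 8 were higher and 3 lower, again near the share of all genes (34.9%), among them Depdc5, a restraint of the pathway, at -1.06 (SE 0.10).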

How the data were processed

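Polyadenylated RNA of 24 libraries was used. The authors deposited expected counts (kallisto 0.43, build mm9, per the submitters' processing notes) and TPM; another deposited table, of normalised values, was not used. The annotation release and strand setting were not given in the sources used here. Estimated counts were rounded. Genes were kept by the edgeR filter at a minimum count of 10, scaled by TMM and fitted with 1 mean per group over all 24 libraries (edgeR 4.0.16, robust quasi-likelihood, limma 3.58.1, R 4.3.3), with Benjamini-Hochberg adjustment over all 16552 genes and a threshold of 0.05. Printed levels are CPM within a gene and deposited TPM between genes. The biological coefficient of variation was 17.6%. Simulated data, with that value for every gene and changes placed in day 1 NlecKO libraries alone, served to check the code. Spread differs between real genes, so this does not vouch for the calls.

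Members, lists, roles and rules for naming genes were chosen with earlier results of these data known: a fixed set of members in every comparison, plus up to 8 raised and 8 lowered members called, and up to 4 genes per list by smallest p. Alternatives were DESeq2 1.42.0 or its size factors, other filters (none beyond 1 count, or 2 CPM in 3 libraries), a replicate block, a sex term, only the libraries compared, and leaving out libraries. GENCODE M21 (GRCm38) served for shared words and overlaps, not for counting.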

Additional observations from a re-analysis of the deposited data

Results flagged for a closer look

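For 5 members the effect of Nle1 loss on day 2 differed between crypts with Apc lost and with Apc intact, by a test of the difference itself in edgeR's quasi-likelihood fit. On the log2 scale the difference was 1.99 for Slc1a1 and 1.90 for Slc6a4, and -1.70 for Slc1a4, -0.97 for Slc7a6 and -0.53 for Slc38a2. Over all alternatives it ranged from 1.78 to 2.18 for Slc1a1 (adjusted p 2.6e-10 to 0.0095), from -1.88 to -1.40 for Slc1a4 (adjusted p 3.8e-07 to 0.014) and from -0.63 to -0.43 for Slc38a2 (adjusted p 0.0007 to 0.049), all under the threshold. For Slc6a4 it ranged from 1.73 to 2.21 (adjusted p 0.00056 to 0.058) and for Slc7a6 from -1.13 to -0.86 (adjusted p 0.0057 to 0.093).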

How the results depend on the processing

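No called value of a named member reversed under any alternative. Of 138 named calls, 35 were lost under at least 1 alternative and 28 without at least 1 single library. Counts moved by over 1.5 times for double knockout against ApccKO crypts on day 1: 5 members, against 2 with no filter beyond 1 count and 1 with only the libraries compared. Without the 3 libraries that stood apart a single ApccKO library of day 1 remained, so no count is given. For ApccKO day 2 against day 1 the 7 became 11 by DESeq2. With only the libraries compared, NlecKO against Control on day 2 gave 1 and double knockout day 2 against day 1 gave 0. DESeq2 gave 5 for double knockout days, 2 for NlecKO against Control on day 1 and 1 for Control days, where a sex term also gave 1. Replicate numbers showed little sign of pairing (23 of 84 same-number pairs correlated over 0.1, and 10 of 24 libraries correlated best with their own number). With 3 libraries a group, this cannot exclude it. By counts of Y chromosome genes, most libraries numbered 1 came from males and most others from females. Replicate 2 of day 1 ApccKO and of day 2 NlecKO crypts was also male. With a replicate block the 5 members of double knockout against ApccKO crypts on day 1 became 3.

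Leaving out each library gave, on day 2, 29 to 33 members for ApccKO against Control, 26 to 30 for double knockout against NlecKO, 9 to 14 for double knockout against ApccKO, 2 to 5 for NlecKO against Control and 3 to 7 for the difference by Apc state. On day 1 the counts were 23 to 30, 29 to 32, 1 to 6, 0 and 0. Between days they were 5 to 11 for ApccKO, 1 to 4 for the double knockout, 0 for NlecKO and 0 to 1 for Control. Members under 2 CPM carry few reads, and small differences there were not detectable at this depth.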
